A study of Homo sapiens with 24 samples.

Results

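The genes described here encode zinc finger proteins that carry a ZNF symbol with a number, and they were expressed in CD18/HPAF cells, an established human pancreatic cancer (PC) cell line. The genes were chosen by their symbol and by their untreated level. A gene was taken when its symbol was ZNF followed by digits alone and its level in untreated cells was at least 3 FPKM (fragments counted per kilobase of transcript and scaled to sequencing depth). This gave 169 genes out of 479 such rows in a table of 30276 rows. Of the 479 rows, 13 lay on alternate contigs, and none of these reached 3 FPKM. The remaining 466 genes on the primary chromosomes are the full family used below. A gene is called expressed below when it reached 3 FPKM in untreated cells, and genes under that limit can still be detected.

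RNA was sequenced from 12 samples left untreated and from 12 samples treated with 1 µM ISOX for 48 h. The titles number the samples of each group 1 to 3 and, within each number, 1 to 4, and what the second number stands for is not stated, so the 12 may not be 12 separate samples of cells. ISOX inhibits histone deacetylases (HDACs), most strongly HDAC6. All samples came from the same cell line grown in DMEM with serum, and the sources used here do not state whether the untreated cells received a vehicle or whether the samples were separate cultures. The deposited table holds a single pooled FPKM per gene and group, so no value per sample, no spread between replicates and no test stands behind any difference given here. The depth of the samples is unknown, and in bulk RNA fewer cells that express a gene cannot be told apart from less RNA per cell. Since the untreated level chose the genes, every ratio of ISOX to untreated is a description.

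Most ZNF proteins bind DNA through arrays of C2H2 fingers, each a short loop held by a zinc ion between paired cysteines and histidines. In many of them a KRAB domain recruits TRIM28, which brings in the methyltransferase SETDB1, HP1 proteins and the NuRD complex with HDAC1 and HDAC2, and so keeps transposable elements and other targets silent. KRAB genes arose by repeated duplication and sit in long clusters, above all on chromosome 19, while a smaller number of ZNF proteins serve in RNA handling, ribosome assembly or the cytoskeleton.

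The epithelial identity of the cells was checked first. The 6 epithelial markers KRT8, KRT18, KRT19, EPCAM, CDH1 and MUC1 lay between 85.1 and 2970 FPKM in untreated cells and between 82.3 and 3325 FPKM with ISOX. Of 12 markers of leukocytes, endothelium, fibroblasts, acinar and islet cells, 11 were in the table, at 0 to 2.68 FPKM in untreated cells, and 8 of them stayed below 0.2 FPKM in both groups. The leukocyte marker CD14 stood at 2.68 FPKM untreated and 7.02 FPKM with ISOX, and the fibroblast marker COL1A1 at 2.48 and 2.75 FPKM. The part of either in the ZNF values was not tested.

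With ISOX, 4 of the 169 genes were at least 1.5-fold higher and 1 was at least 1.5-fold lower. Of all 9784 rows at 3 FPKM or more in untreated cells, the ZNF genes included, 10.7% were at least 1.5-fold higher and 1.86% at least 1.5-fold lower. The 4 higher genes (2.37% of the 169) were ZNF277, ZNF217, ZNF146 and ZNF267, and the lower gene (0.592%) was ZNF254. Because no other gene of the 169 passed this fold, the 250 bases upstream of the RefSeq start of each of these genes are shown, so that their promoters can be compared with the values that follow. The build is GRCh38.p14, and each sequence runs in the direction of transcription. The windows are chr7:112206445-112206694 on the plus strand for ZNF277, chr20:53593840-53594089 on the minus strand for ZNF217, chr19:36214856-36215105 on the plus strand for ZNF146, chr16:31873557-31873806 on the plus strand for ZNF267 and chr19:24086937-24087186 on the plus strand for ZNF254. All lie upstream of the RefSeq start. Those of ZNF217, ZNF146 and ZNF254 lie wholly inside the table's locus for the gene, and those of ZNF277 and ZNF267 run partly into it. Capitals mark matches to the motifs described after them.
ZNF277: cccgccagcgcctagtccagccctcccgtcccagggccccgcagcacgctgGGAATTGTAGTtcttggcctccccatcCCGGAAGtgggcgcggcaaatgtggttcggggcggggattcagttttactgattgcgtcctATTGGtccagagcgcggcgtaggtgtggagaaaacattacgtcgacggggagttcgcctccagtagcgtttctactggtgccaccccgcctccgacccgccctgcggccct
ZNF217: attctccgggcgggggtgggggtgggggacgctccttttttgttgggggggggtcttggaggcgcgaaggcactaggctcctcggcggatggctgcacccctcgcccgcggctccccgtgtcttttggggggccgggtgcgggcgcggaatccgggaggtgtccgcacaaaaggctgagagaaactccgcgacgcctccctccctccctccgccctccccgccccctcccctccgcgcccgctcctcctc
ZNF146: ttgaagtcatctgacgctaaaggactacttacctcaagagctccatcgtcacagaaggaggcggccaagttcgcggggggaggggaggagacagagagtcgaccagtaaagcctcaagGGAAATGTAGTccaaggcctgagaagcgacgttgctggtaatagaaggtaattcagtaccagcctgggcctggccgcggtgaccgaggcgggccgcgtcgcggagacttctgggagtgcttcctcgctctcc
ZNF267: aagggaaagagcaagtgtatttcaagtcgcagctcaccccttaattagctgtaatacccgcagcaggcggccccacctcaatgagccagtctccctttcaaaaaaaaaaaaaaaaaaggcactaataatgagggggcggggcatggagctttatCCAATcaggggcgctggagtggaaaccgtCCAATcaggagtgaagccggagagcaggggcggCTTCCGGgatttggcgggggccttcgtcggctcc
ZNF254: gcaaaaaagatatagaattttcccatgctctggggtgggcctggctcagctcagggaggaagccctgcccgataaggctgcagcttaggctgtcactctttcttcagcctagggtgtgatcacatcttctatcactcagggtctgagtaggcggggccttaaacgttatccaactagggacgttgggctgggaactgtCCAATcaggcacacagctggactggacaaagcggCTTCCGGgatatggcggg

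The motifs were searched on both strands of the 250 bases before each RefSeq start, and a base could count for more than a single motif. A promoter was found for 143 of the 169 genes. The sequence bound by ZNF143, searched as ACTACA followed by any 2 bases and TCC, was present in 18 of the 143 (12.6%), in 13.4% of 246 other ZNF genes, in 4.77% of 7238 genes at 3 FPKM or more and in 2.2% of all 27305 genes with a promoter. ZNF277 and ZNF146 carried it, in both cases on the strand opposite to transcription. CCGGAAG, an ETS-type site, was present in 33.6% of the expressed ZNF genes, in 32.5% of the other ZNF genes, in 21% of the genes at 3 FPKM or more and in 10.2% of all genes. It was found with CCAAT, the CCAAT box, in ZNF277, ZNF267 and ZNF254. ZNF267 and ZNF254, which lie on opposite sides of the 1.5-fold lines, both had CCAAT upstream of the ETS-type letters, with 2 CCAAT matches in ZNF267 and 1 in ZNF254. The promoter of ZNF217, with a GC content of 72.4%, held none of the letters searched.

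Among the other motifs, TGACGTCA, the cAMP response element, was present in 11 expressed ZNF genes (7.69%), in 1.22% of the other ZNF genes, in 3.95% of the genes at 3 FPKM or more and in 2.03% of all genes. Genes with it included ZNF330 and ZNF143, as well as ZNF511 and ZNF593. TGATGCAA, the composite site bound by CEBP and ATF4, was found in 0 of 143 and in 0.407% of the other ZNF genes. It was found in 0.566% of the genes at 3 FPKM or more and in 0.967% of all genes. CACGTG, the E-box, was present in 6.99%, against 4.07% of the other ZNF genes, 11.7% of the genes at 3 FPKM or more and 7.73% of all genes. AAGATGGCG, bound by YY1, was present in 3 expressed ZNF genes (2.1%), against 1.63% of the other ZNF genes, 1.56% and 0.784%. CCAAT was present in 46.2% of the expressed ZNF genes and in 53.3% of the other ZNF genes. It was present in 42.2% of the genes at 3 FPKM or more and in 37% of all genes. The 11 genes with TGACGTCA had a median log2 ratio of 0.20, against 0.14 for those without it, and the 18 with the ZNF143-type letters had 0.16 against 0.13. Carriers of the ETS-type letters had 0.15 against 0.14 and those of CCAAT 0.15 against 0.12, while carriers of the E-box had 0.11 against 0.14 and those of the YY1 letters 0.08 against 0.15. A match describes letters in a window and was not tested for binding.

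ZNF277 stood furthest from equality. It is a C2H2 protein whose mouse counterpart acts with Polycomb proteins at the Cdkn2a locus. Its level was 3.83 FPKM in untreated cells and 7.76 FPKM with ISOX, a log2 ratio of 1.02, and it was the only expressed ZNF gene past 2-fold in either direction, beside 2.12% of all rows at least 2-fold higher and 0.675% at least 2-fold lower. The row spans chromosome 7 from 112206588 to 112344537 of hg38. It shares an exon only with RN7SKP187, a small noncoding RNA gene.

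ZNF217, an oncoprotein that is amplified in several carcinomas and binds the CoREST and LSD1 corepressors, was measured at 8.96 FPKM untreated and 13.6 FPKM with ISOX (log2 0.60). ZNF146, made almost entirely of fingers and described as overexpressed in pancreatic carcinomas, was at 30.6 and 46.2 FPKM (log2 0.59). ZNF267, a KRAB protein, was at 4.52 and 6.78 FPKM (log2 0.59). These 3 genes lie within 0.0133 of the 1.5-fold line on the log2 scale, and none of them passes it once the ratios are centred on the median of all rows. ZNF330, a nucleolar protein, lay just short of it at 15.3 and 22.4 FPKM (log2 0.56). ZNF146 shares exons with ZNF565, and reads from shared exons cannot be told apart.

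ZNF254, a KRAB gene at the end of the large cluster near the centromere of chromosome 19, was at 3.08 FPKM untreated and 1.98 FPKM with ISOX (log2 -0.64). It was not tested by the authors' program and sits close to the lower limit for inclusion. The next lowest ratio belonged to ZNF703, a corepressor amplified in luminal breast cancer, at 42.6 FPKM untreated and 31.9 FPKM with ISOX (log2 -0.42). ZNF703 was by far the more abundant of the pair.

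**Figure D1:**
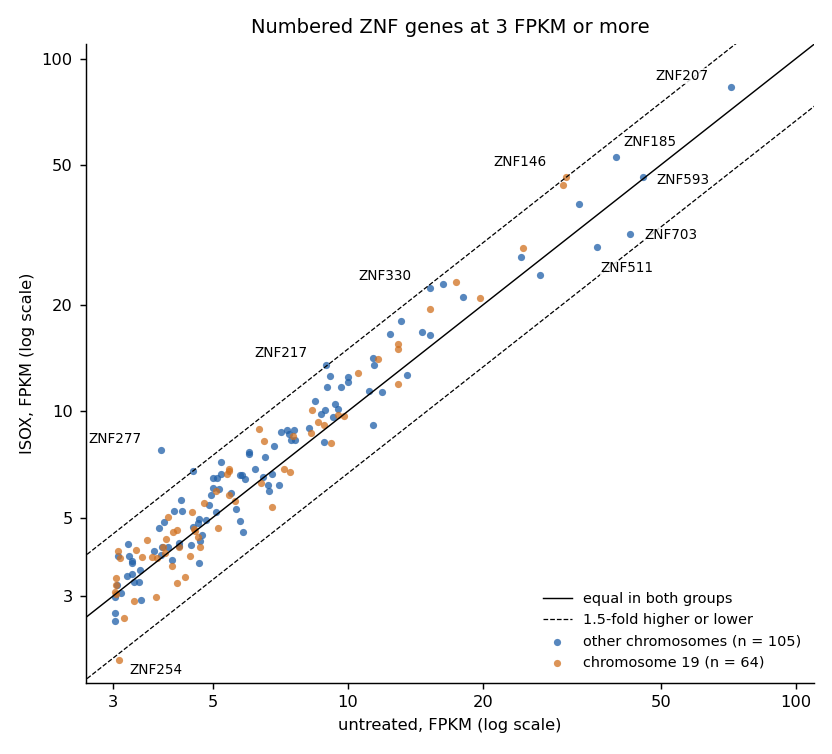
Level of each of the 169 ZNF genes in untreated cells (x axis, FPKM, log scale) and with ISOX (y axis, FPKM, log scale), 1 point per gene, coloured by chromosome 19 or other chromosomes. The solid line marks equal levels and the dashed lines 1.5-fold, and ZNF277 above and ZNF254 below stand furthest from the solid line.

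Expressed ZNF genes were mostly low. Their median level was 5.45 FPKM in untreated cells and 6.18 FPKM with ISOX, against 13.7 and 15.8 FPKM for all rows at 3 FPKM or more. Of the 169 genes, 72 were under 5 FPKM, 33 reached 10 FPKM and 8 reached 30 FPKM. The 10 most abundant genes held 26.5% of the summed untreated FPKM of the 169, which was 1434 untreated and 1601 with ISOX.

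The most abundant genes ranged from proteins with no C2H2 match to ZNF226 with 17. ZNF207, a spindle and kinetochore protein also known as BuGZ, led with 71.6 FPKM untreated and 83.0 FPKM with ISOX. ZNF593, whose yeast counterpart works on the large ribosomal subunit, followed at 45.7 and 46.1 FPKM. ZNF185, a LIM protein of the actin cytoskeleton, was at 39.7 and 52.7 FPKM (log2 0.41). Neither ZNF185 nor ZNF703 had any match to the C2H2 pattern, and ZNF207 and ZNF593 had 1 each. ZNF511 was at 36.0 and 29.2 FPKM (log2 -0.30), and its exons overlap those of TUBGCP2 and of the readthrough gene ZNF511-PRAP1. ZNF706, a small protein that in mouse stem cells takes part in the exit from self-renewal, was at 32.8 and 38.7 FPKM. ZNF395, a DNA-binding protein linked to hypoxia, was at 26.8 and 24.3 FPKM and shares exons with FBXO16. Only 3 of the 10 lie on chromosome 19. These are ZNF146, the KRAB gene ZNF226 at 30.2 and 43.9 FPKM (log2 0.54), and ZNF787 at 24.6 and 29.03 FPKM.

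The log2 ratios of the 169 genes had a median of 0.12, or 1.09-fold, with quartiles of -0.02 and 0.28. All rows at 3 FPKM or more had a median of 0.21, or 1.16-fold, with quartiles of 0.03 and 0.40. That shift of the whole table sets the scale on which the ZNF values are read. A ratio below 0 was found for 48 ZNF genes (28.4%) and for 21.2% of all rows, and 108 ZNF genes (63.9%) lay below the median of all rows. Measured from that median, 1 ZNF gene, ZNF277, was at least 1.5-fold above it and 2, ZNF254 and ZNF703, at least 1.5-fold below it, beside 4.21% and 4% of all rows. Levels within 1.25-fold of each other in the 2 groups were found for 131 ZNF genes (77.5%) and for 61.0% of all rows. The summed FPKM of the ZNF genes was 1.12-fold higher with ISOX, and that of all rows 1.29-fold higher. Rows at 30 FPKM or more held 579646 of the 662104 FPKM of all rows untreated. The sums were 1.06-fold higher for ZNF genes and 1.17-fold for all rows at 3 to 5 FPKM, and 1.11- and 1.18-fold at 5 to 10 FPKM. They were 1.15- and 1.19-fold higher at 10 to 30 FPKM, and 1.13- and 1.31-fold at 30 FPKM or more.

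The ratio varied with the level. Between 3 and 5 FPKM, 72 ZNF genes had a median log2 ratio of 0.06, beside 0.17 for 1365 rows of that range. Between 5 and 10 FPKM, 64 ZNF genes had 0.17 and 2383 rows 0.18. Between 10 and 30 FPKM, 25 ZNF genes had 0.24 and 3429 rows 0.21. At 30 FPKM or more, 8 ZNF genes had 0.22 and 2607 rows 0.27. The gap in medians therefore lay mainly in the genes near the lower limit, but the gap in genes at least 1.5-fold higher did not. These made up 2.78% of ZNF genes and 10.3% of rows at 3 to 5 FPKM, and 1.56% and 9.11% at 5 to 10 FPKM. At 10 to 30 FPKM they made up 0% and 9.27%, and at 30 FPKM or more 12.5% (1 gene) and 14.3%. In the lowest range 34.7% of ZNF genes and 28.1% of rows had a ratio below 0. The authors' program had tested 113 of the 169 genes, with a median of 0.19, and had left 56 untested, with a median of 0.03. All 56 were between 3.02 and 4.68 FPKM in untreated cells.

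**Figure D2:**
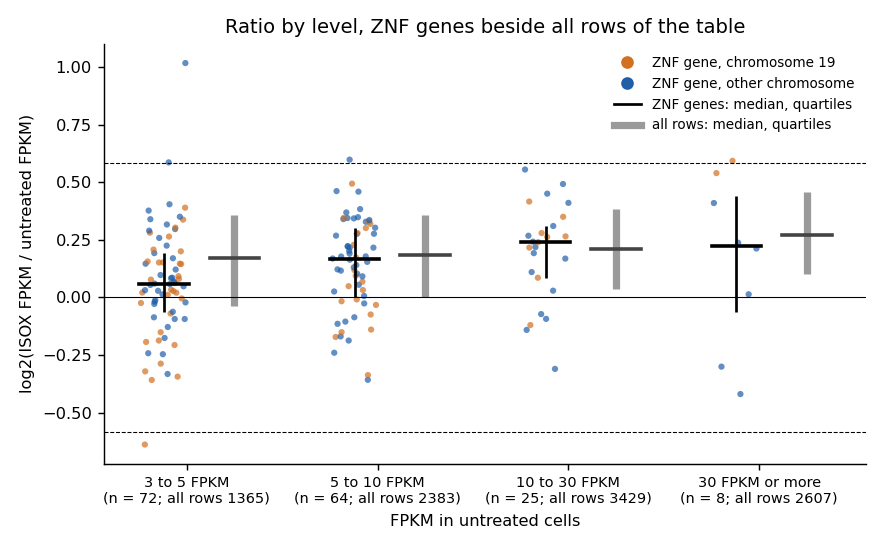
Log2 ratio of ISOX to untreated FPKM (y axis) by level in untreated cells (x axis, 4 ranges of FPKM), with 1 point per ZNF gene and black lines for their median and quartiles, beside grey bars for the median and quartiles of all rows in the range. Dashed lines mark 1.5-fold, and the medians of the ZNF genes and of all rows lie furthest apart between 3 and 5 FPKM.

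Besides the 5 described above, the 10 highest ratios were those of ZNF226, ZNF302, ZNF22, ZNF143 and ZNF644. ZNF302, a KRAB gene of chromosome 19, was at 6.34 FPKM untreated and 8.93 FPKM with ISOX (log2 0.49). ZNF22 was at 16.3 and 23.0 FPKM (log2 0.49). ZNF644, a partner of the histone methyltransferase G9a, was at 9.13 and 12.6 FPKM (log2 0.46). All 10 genes had been tested by the authors' program, 3 carried a KRAB-type match and 3 lay on chromosome 19.

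Besides ZNF254, ZNF703 and ZNF511, the 10 lowest ratios comprised 5 KRAB genes and a pair of others. ZNF552 was at 4.34 FPKM untreated and 3.38 FPKM with ISOX (log2 -0.36), ZNF530 at 4.15 and 3.27 FPKM (log2 -0.34) and ZNF586 at 6.77 and 5.36 FPKM (log2 -0.34). These 3 belong to the cluster at the end of the long arm of chromosome 19, where ZNF552 and ZNF586 share exons with each other. ZNF707 was at 5.85 and 4.56 FPKM (log2 -0.36) and ZNF765 at 3.73 and 2.98 FPKM (log2 -0.32). ZNF691 was at 4.67 and 3.70 FPKM (log2 -0.33), and ZNF219, which in mouse chondrocytes partners Sox9, was at 11.4 and 9.17 FPKM (log2 -0.31). In this set 6 genes carried a KRAB-type match, 5 lay on chromosome 19 and 5 had been tested.

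The genes lay on 20 chromosomes, with 64 on chromosome 19 and 105 elsewhere. On chromosome 19 the median log2 ratio was 0.09, with 21 of 64 below 0, 1 gene at least 1.5-fold higher (ZNF146) and 1 at least 1.5-fold lower (ZNF254), beside 5.71% and 1.5% of all rows of that chromosome. Elsewhere the median was 0.15, with 27 of 105 below 0, 3 genes at least 1.5-fold higher and 0 at least 1.5-fold lower, beside 11.1% and 1.89% of all rows elsewhere. The quartiles, -0.04 to 0.26 on chromosome 19 and -0.01 to 0.29 elsewhere, overlapped over nearly their whole length. The difference of the medians, -0.06, was -0.0166 with the limit put on the ISOX level and -0.0141 with it on the mean of both groups, and turned to 0.00476 among genes at 5 FPKM or more and to 0.00887 among genes tested by the authors' program. The 601 other rows of chromosome 19 had a median of 0.17, against 0.22 for all rows elsewhere.

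Chromosomes other than 19 held smaller groups. Chromosome 7 had 16 genes with a median log2 ratio of 0.17, chromosome 16 had 15 with 0.09, and chromosome 1 had 11 with 0.01. Chromosome 8 had 8 genes with a median of 0.07, and 4 of them were below 0, among them ZNF703, ZNF395 and ZNF707. Their summed FPKM was 130.1 untreated and 124.8 with ISOX (0.959-fold). Of that sum, ZNF703 alone went from 42.6 to 31.9 FPKM. All 6 genes of chromosome 12 were above 0, between 0.03 and 0.37. The X chromosome had a single gene, ZNF185.

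Chromosome 19 differed from the rest more in the levels of its genes than in their ratios. The chromosome held 233 of the 466 ZNF genes and the other chromosomes the same number. On chromosome 19, 27.5% of the genes reached 3 FPKM in untreated cells and 40.8% were below 0.1 FPKM. Elsewhere 45.1% reached 3 FPKM and 14.6% were below 0.1 FPKM. Of all 25947 named rows on the primary chromosomes, 37.3% reached 3 FPKM and 45% were below 0.1 FPKM. In the whole family 129 genes (27.7%) stood below 0.1 FPKM without treatment, a smaller share than that of all named rows, and 87 of them were listed at 0. None of the 129 reached 1 FPKM with ISOX, and the share of all rows below 0.1 FPKM that did so was not counted. The highest of them was ZNF382, a KRAB gene, at 0.0563 FPKM untreated and 0.141 FPKM with ISOX.

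Clusters were formed by joining ZNF genes whose starts were at most 1 Mb apart, which gave 16 groups on chromosome 19, 11 of them with an expressed gene and 5 with a single gene. The cluster from 19.7 to 24.1 Mb, from ZNF101 to ZNF254, held 34 genes, of which 26 (76.5%) were below 0.1 FPKM, and these 26 were at most 0.0272 FPKM with ISOX. Only ZNF714, at 4.54 and 4.65 FPKM, and ZNF254 reached 3 FPKM untreated there. ZNF101 was under the limit at 2.51 and 2.84 FPKM. The cluster from 11.6 to 12.6 Mb had 2 of 23 genes expressed, ZNF700 (5.07 and 5.94 FPKM) and ZNF791 (3.93 and 4.35 FPKM), with 16 below 0.1 FPKM. The cluster from 36.2 to 37.8 Mb was alike, with 2 of 24 expressed and 16 below 0.1 FPKM. Its expressed genes, ZNF146 and ZNF260 (6.50 and 8.26 FPKM, log2 0.35), had no KRAB-type match, while 20 of its 24 genes had one.

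Other clusters had a larger share of expressed genes. From 7.07 to 9.77 Mb, 8 of 14 genes were expressed, led by ZNF121 (9.54 and 9.75 FPKM) and ZNF317 (8.84 and 9.15 FPKM), and their median log2 ratio was 0.11. From 43.5 to 45.1 Mb, 9 of 24 genes were expressed and 0 were below 0.1 FPKM. ZNF226 led there, followed by ZNF428 at 12.97 and 11.9 FPKM, and the median was 0.02. From 51.6 to 53.6 Mb, 11 of 38 genes were expressed, with a median of -0.01 and 6 of 11 below 0. ZNF761 (9.79 and 9.68 FPKM) and ZNF468 (7.45 and 6.71 FPKM) led it. The largest cluster, from 55.5 to 58.5 Mb, had 25 of 57 genes expressed, led by ZNF787 and ZNF524 (19.8 and 21.0 FPKM), and a median of 0.09 with 8 of 25 below 0.

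The remaining expressed genes of the chromosome lay in small groups. ZNF574 (9.18 and 8.15 FPKM, log2 -0.17) and ZNF526 (4.46 and 3.90 FPKM, log2 -0.19) are neighbours near 42 Mb, and both were lower with ISOX. ZNF507 was at 4.08 and 4.55 FPKM, and ZNF473, which takes part in histone pre-mRNA processing, at 4.16 and 4.62 FPKM. In the cluster that starts at 34.7 Mb only ZNF302 of 5 genes reached 3 FPKM untreated, but 0 were below 0.1 FPKM. ZNF181 (2.34 and 3.32 FPKM) and ZNF30 (2.38 and 3.46 FPKM) passed 3 FPKM with ISOX.

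**Figure D3:**
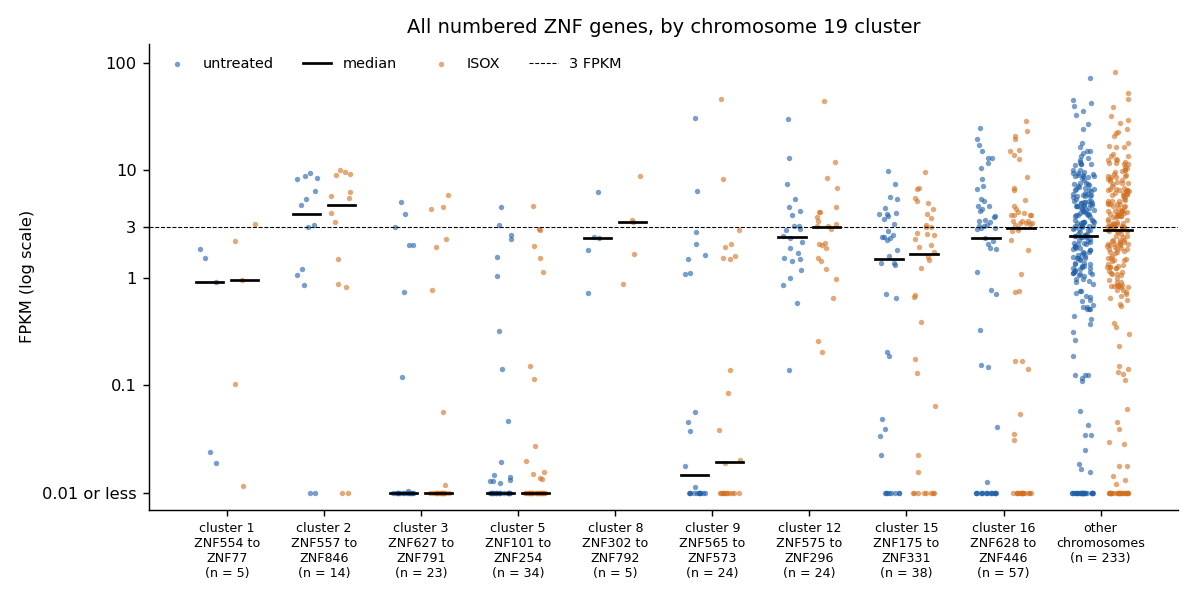
FPKM (y axis, log scale, values under 0.01 drawn at 0.01) of every numbered ZNF gene in untreated cells (blue) and with ISOX (orange), by chromosome 19 cluster of at least 5 genes and for all other chromosomes together (x axis), with black bars for medians and a dashed line at 3 FPKM. In the cluster from ZNF101 to ZNF254, 26 of 34 genes lie below 0.1 FPKM in untreated cells, and in that from ZNF575 to ZNF296 none does.

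Protein features were counted in the coding sequences of GENCODE release 29, by letter patterns that miss diverged domains. ZNF263 and ZNF473, for example, are known KRAB proteins without a match. A coding sequence was read for all 169 genes and for 462 of the 466. A KRAB-type match was found in 277 genes of the family, of which 23.5% reached 3 FPKM and 35% were below 0.1 FPKM. Of the 185 genes without a match, 56.2% reached 3 FPKM and 15.1% were below 0.1 FPKM. The contrast was seen within chromosome 19 as well, where 20.6% of 194 KRAB-type genes and 64.9% of 37 others reached 3 FPKM. Elsewhere 30.1% of 83 KRAB-type genes and 54.1% of 148 others did. Genes without a match thus reached 3 FPKM more often on chromosome 19 than elsewhere, and KRAB-type genes less often. KRAB-type genes made up 194 of the 233 genes of chromosome 19 and 83 of the 233 elsewhere. The share was lower with more fingers, going from 62.5% with 0 to 2 matches, through 55.7% with 3 to 6 and 34.3% with 7 to 12, to 27.4% with 13 or more.

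The ratios were less divided by these features than the levels were. Among the 169 expressed genes, 65 had a KRAB-type match, with a median log2 ratio of 0.14, and 104 had none, with a median of 0.12. The 10 genes with a SCAN-type match, a domain for pairing between such proteins, had 0.08. By number of fingers, the medians were 0.12 with 0 to 2 (20 genes, 7 below 0), 0.17 with 3 to 6 (34 genes, 8 below 0), 0.15 with 7 to 12 (69 genes, 16 below 0) and 0.04 with 13 or more (46 genes, 17 below 0). KRAB-type genes had a median level of 4.52 FPKM, others 6.73 FPKM, and genes with 0 to 2 fingers 12.2 FPKM. Exons shared with another coding gene were found for 50 of the 169. ZNF503 is among the 50 only through overlap between a noncoding and a coding gene of that same name. The median was 0.14 for the 119 genes without such sharing.

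Known roles group part of the family. In ribosome work, ZNF598, the ligase that marks collided ribosomes, was at 12.4 FPKM untreated and 16.5 FPKM with ISOX (log2 0.41). ZNF622, whose yeast counterpart matures the large ribosomal subunit, was at 24.4 and 27.4 FPKM (log2 0.17), and ZNF593 was level at 0.01. None of the 3 passed 1.5-fold, beside 10.7% of all rows at least 1.5-fold higher and 1.86% at least 1.5-fold lower. Of 6 genes for RNA binding, splicing and mitosis, 5 were expressed, with a median of 0.24. None was past 1.5-fold, beside the same shares of all rows. ZNF830, a spliceosome-associated protein, was at 6.02 and 7.66 FPKM (log2 0.35), and the RNA-binding protein ZNF106 at 7.33 and 8.83 FPKM (log2 0.27). ZNF638, a partner in silencing of unintegrated retroviral DNA, was at 11.5 and 13.6 FPKM (log2 0.24), and ZNF326 of the DBIRD splicing complex at 13.5 and 12.7 FPKM (log2 -0.09). The remaining gene, ZNF346, a binder of double-stranded RNA, was at 2.81 and 3.06 FPKM.

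All 9 widely expressed DNA-binding regulators were expressed, all 9 had ratios above 0, and the median was 0.22, close to that of all rows. ZNF143, an activator bound at many promoters, was at 5.21 FPKM untreated and 7.17 FPKM with ISOX (log2 0.46), while its relative ZNF76 was at 9.51 and 10.1 FPKM (log2 0.09). ZNF410, known for its activation of the NuRD gene CHD4, was at 18.1 and 21.1 FPKM (log2 0.22), and CHD4 itself at 31.5 and 35.3 FPKM (log2 0.17). The related GC-box proteins ZNF148 (9.36 and 10.5 FPKM, log2 0.16) and ZNF281 (4.95 and 5.79 FPKM, log2 0.22) were alike. ZNF263 was at 7.09 and 8.75 FPKM (log2 0.30), ZNF24 at 15.2 and 16.4 FPKM (log2 0.11) and ZNF384 at 11.2 and 11.4 FPKM (log2 0.03). ZNF146 was the only one of the 9 past 1.5-fold, beside 10.7% of all rows at least 1.5-fold higher.

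The 10 epithelial and cancer-linked regulators were split. Of these, 5 were expressed, with a median of -0.13 and 4 of 5 below 0, beside 21.2% of all rows below 0. Of the 4, ZNF503, ZNF395 and ZNF652 were within 1.25-fold of equality, and 0 were at least 1.5-fold lower. ZNF652 had not been tested by the authors' program. ZNF217 was the exception. ZNF703 and its relative ZNF503 (6.79 and 6.66 FPKM, log2 -0.03), ZNF395 (log2 -0.14) and ZNF652, a repressor (4.68 and 4.28 FPKM, log2 -0.13), made up the rest. ZNF750, a regulator of epidermal differentiation, was at 0.126 and 0.132 FPKM, and ZNF423 was listed at 0 in both groups. Among 4 products without the usual finger array, ZNF185, ZNF330 and ZNF706 were expressed, with ratios of 0.41, 0.56 and 0.24, and ZNF365 was listed at 0 in both groups.

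Of 12 KRAB proteins known to act on transposable elements or on repeats, 3 were expressed (25%), beside 23.5% of all KRAB-type genes. ZNF274, which recruits SETDB1 to the ends of ZNF genes, was at 11.7 FPKM untreated and 14.05 FPKM with ISOX (log2 0.27). ZNF268 was at 6.02 and 7.59 FPKM (log2 0.34) and ZNF587 at 7.22 and 6.85 FPKM (log2 -0.07). ZNF91 and ZNF93, which restrain SVA and LINE elements, were listed at 0 in untreated cells and at 0.0079 and 0.0155 FPKM with ISOX. ZNF649 and ZNF141 were listed at 0 in both groups. The highest of the 9 genes under the limit was ZNF10, at 1.22 and 1.54 FPKM.

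The corepressor partners of KRAB proteins ranged in untreated cells from 6.13 FPKM (MPHOSPH8) to 193 FPKM (TRIM28). All rows at 3 FPKM or more had a median of 13.7 FPKM, and the expressed ZNF genes 5.45 FPKM. Of 18 names on the corepressor list 17 were in the table, FAM208A and TASOR being names of the same gene, and all 17 were at 3 FPKM or more. None passed 1.5-fold, beside 10.7% of all rows at least 1.5-fold higher and 1.86% at least 1.5-fold lower. At those shares a count of 0 in a list this small says little. The median log2 ratio was 0.17, beside 0.21 for all rows. TRIM28, the hub of the complex, was at 193 FPKM untreated and 201 FPKM with ISOX (log2 0.06). SETDB1, the histone methyltransferase, was at 9.30 and 13.2 FPKM (log2 0.50), and its cofactor ATF7IP at 11.3 and 13.6 FPKM (log2 0.27). The HP1 genes were unequal, with CBX3 at 149 and 204 FPKM (log2 0.46), CBX1 at 61.4 and 76.2 FPKM (log2 0.31) and CBX5 at 24.5 and 25.6 FPKM (log2 0.07).

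Members of the HUSH silencing complex had ratios of 0.33 for PPHLN1, 0.10 for FAM208A and -0.17 for MPHOSPH8, and MORC2, which works with HUSH, had 0.22. UHRF1, which guides DNA methylation at replication, was at 23.7 and 18.4 FPKM (log2 -0.36), and DNMT1, the methyltransferase it guides, at 25.1 and 24.6 FPKM (log2 -0.03). The histone methyltransferases SUV39H1 and SUV39H2 had 0.17 and 0.22, the remodellers SMARCAD1 and ATRX 0.32 and 0.07, and the histone chaperone DAXX 0.01. All 13 NuRD genes were expressed, with a median of 0.17. None passed 1.5-fold, beside 10.7% of all rows at least 1.5-fold higher and 1.86% at least 1.5-fold lower. HDAC1 was at 162 and 156 FPKM (log2 -0.05), HDAC2 at 31.1 and 40.8 FPKM (log2 0.39) and the remodeller CHD3 at 33.0 and 27.2 FPKM (log2 -0.28). The other 10 NuRD genes, among them MTA1, MTA2, MTA3, RBBP4, RBBP7, MBD2, MBD3, GATAD2A and GATAD2B, lay between -0.01 and 0.25.

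**Figure D4:**
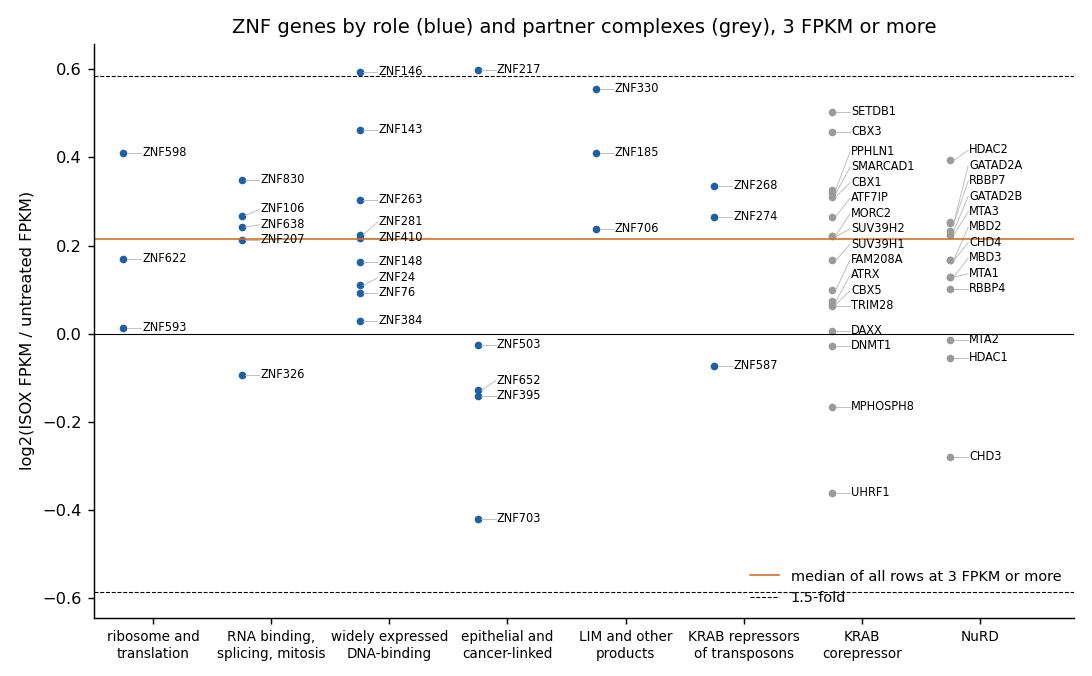
Log2 ratio of ISOX to untreated FPKM (y axis) of ZNF genes by role (blue) and of genes of the KRAB corepressor and NuRD lists (grey), 1 point per gene at 3 FPKM or more in untreated cells. The orange line is the median of all rows (0.21) and the dashed lines mark 1.5-fold, and of the genes drawn only ZNF217 and ZNF146 lie past them.

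Near the limit of 3 FPKM the choice of genes was sensitive to small differences. The 3 genes just inside were ZNF362 (3.02 FPKM untreated, 2.54 FPKM with ISOX), ZNF142 (3.02 and 2.67 FPKM) and ZNF337 (3.03 and 2.98 FPKM). The 3 just outside were ZNF35 (2.99 and 3.16 FPKM), ZNF562 (2.97 and 3.28 FPKM) and ZNF627 (2.95 and 4.56 FPKM). Across the limit, 23 genes were below 3 FPKM untreated and at or above it with ISOX, and 8 the reverse. The whole table also held more rows at 3 FPKM or more with ISOX (10051) than untreated (9784). Its rows that crossed the limit each way were not counted. Put on the ISOX level instead, the limit took 184 genes, with a median log2 ratio of 0.16, 10 at least 1.5-fold higher and 0 at least 1.5-fold lower. All 10051 rows at 3 FPKM or more with ISOX had a median of 0.23, with 12.6% at least 1.5-fold higher and 1.1% at least 1.5-fold lower.

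Below the limit, 119 numbered ZNF genes lay between 1 and 3 FPKM in untreated cells, and none of them had been tested by the authors' program. Their median log2 ratio was 0.14, beside 0.13 for all 2078 rows of that range. With ISOX 8 of them were at least 1.5-fold higher and 1 was at least 1.5-fold lower, beside 14.7% and 7.41% of the rows of that range. The highest ratio was that of ZNF449, a SCAN-type gene of the X chromosome, at 1.95 FPKM untreated and 3.80 FPKM with ISOX (log2 0.97). ZNF77 (1.85 and 3.15 FPKM, log2 0.77), ZNF717 (2.44 and 3.97 FPKM, log2 0.70) and ZNF184 (2.44 and 3.93 FPKM, log2 0.68) followed. The lower gene was ZNF296, at 2.85 and 1.88 FPKM (log2 -0.60), the last gene of the cluster that holds ZNF226. These genes were picked after seeing their values.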

How the data were processed

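RNA from untreated and ISOX-treated CD18/HPAF cells was sequenced as paired reads of 75 bases by the authors. Bowtie, TopHat, Cufflinks and Cuffdiff appear in the submitters' processing notes beside build hg38, and versions and annotation were not given in the sources used here. FPKM values were deposited by the authors, pooled by Cuffdiff into 1 value per gene and group. The deposited log2 fold changes, the test statistic (a score) and the p-values and q-values are the authors' own comparison and were not used. Of the status column only the mark of a tested row was read. Groups came from the sample titles.

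Log2 ratios were computed from the FPKM with nothing added. With 1 value per group, genes past 1.5-fold were counted and set beside all rows at 3 FPKM or more in untreated cells, and no test was run. A row listed at 0 with ISOX was kept as lower. Rows that join several genes (7 with a numbered ZNF gene, 4 of them at 3 FPKM or more) were left out. Near-identical ZNF genes and shared exons may divide reads in ways that cannot be seen here. In GENCODE release 29, 88 of 169 genes share an exon with some other gene, counting ZNF503, whose overlap is with its own name. Starts were converted to count from 1. A C2H2 match was 2 cysteines separated by 2 to 4 residues, then 12 residues, then 2 histidines separated by 3 to 5.

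The genes named were the 10 highest levels, the 10 highest and 10 lowest ratios, every expressed gene of a role list, up to 2 genes per cluster, 3 genes on each side of the limit and the corepressor genes at 3 FPKM or more. Any further gene was picked after seeing its values. The genes and lists were chosen with earlier results of these data known. Python 3.11.15 was used with numpy 2.4.6, pandas 2.3.3, scipy 1.17.1 and matplotlib 3.10.9.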

Additional observations from a re-analysis of the deposited data

How the results depend on the processing

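No paired analysis was possible because the table holds 1 pooled value per gene and group, and for the same reason no sample could be left out. The depth is unknown. The median log2 ratio of 0.12 stayed within 0.05 under 8 alternatives, and was 0.19 at 5 FPKM or more, 0.19 among tested rows only and -0.0922 after centring on the median of all rows. The 4 genes at least 1.5-fold higher became 12 at 1 FPKM or more (4.17%, against 11.4% of all rows). At 5 FPKM or more there were 2 (2.06%, against 10.8%). With the limit on the ISOX level there were 10 (5.43%, against 12.6%). With it on the mean of both groups there were 7 (4%, against 11.9%). The count was 1 with 1 FPKM added, 1 after centring (4.21% of all rows) and 1 at 2-fold (2.12% of all rows). It was also 1 without genes that share an exon with any other gene. The last setting was chosen after seeing the data, as was leaving out genes that share exons with coding genes. The 1 gene at least 1.5-fold lower became 2 at 1 FPKM or more (2.83% of all rows) and 2 after centring (4% of all rows). It became 0 at 5 FPKM or more (1.59% of all rows) and among tested rows (1.27%). With the limit on the ISOX level (1.1%) or on the mean (1.53%) it was 0. It was also 0 with 1 FPKM added, at 2-fold (0.675% of all rows) and without genes that share an exon with any other gene. The difference of the chromosome 19 median from the other chromosomes, -0.06, was -0.00626 at 1 FPKM or more, 0.00476 at 5 FPKM or more and 0.00887 among tested rows. It was -0.0166 with the limit on the ISOX level and -0.0141 with it on the mean, and lay between -0.0667 and -0.046 under the other 6 alternatives. With a gap of 0.5 Mb, 13 of 20 clusters held an expressed gene, against 11 of 16. Centring subtracts the median of all rows and the tested rows exclude 56 low genes by construction, and the cause of the other differences was not tested.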

Other observations

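Other families with C2H2 fingers gave values in the same range. The 22 expressed ZBTB genes, which pair fingers with a BTB domain, had a median log2 ratio of 0.04. Ratios below 0 were found for 8 of them (36.4%, beside 21.2% of all rows). None was past 1.5-fold, beside 10.7% of all rows at least 1.5-fold higher and 1.86% at least 1.5-fold lower. The 6 ZSCAN and ZKSCAN genes had a median of 0.22 and the 6 ZFP genes 0.27. None of these 12 passed 1.5-fold, beside the same shares of all rows.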
